A study of Mus musculus with 8 samples.

Results

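Memory and effector CD8 T cells were described in the deep cervical lymph nodes of C57BL/6 mice, the nodes that receive drainage from the brain and its coverings. The cells were picked by their transcripts. A barcode was kept with at least 500 genes and at most 10% mitochondrial UMIs (unique molecular identifiers, the counted molecules), and it was gated as a CD8 T cell with at least 1 UMI of Cd3e, Cd3d or Cd3g, at least 2 UMIs of Cd8a plus Cd8b1 and none of Cd4, Cd79a or Trdc. Gated cells with at least 2 UMIs of Ccl5 were taken as memory and effector cells, called Ccl5-high cells here, and gated cells with 0 served as the comparison. This gave 1762 Ccl5-high cells among 12704 gated CD8 T cells and 49060 kept barcodes. The level of Ccl5, which chose the cells, is therefore no finding, and neither is any gene that separates them from the cells with 0.

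Live immune cells had been sorted from the nodes on day 20 and sequenced as 5 droplet libraries, 1 for each group. The saline group received buffered saline in the brain and no tumour. The isotype and anti-CTLA-4 groups carried GL261, a transplanted mouse glioma line, had intact B cells, and received an isotype control antibody or an antibody against the inhibitory receptor CTLA-4. The B cell-depleted isotype and B cell-depleted anti-CTLA-4 groups carried the same tumour and also received anti-CD20, which removes B cells. Values for the 5 libraries are given in this order throughout. How many mice went into a library is not given in the sources used here. With 1 library a group there is no replicate, so no test between groups was possible, and every interval is a 95% interval that covers counting error only.

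CD8 T cells leave the naive state when they meet antigen, or, without foreign antigen, under interleukin 15 and self recognition. The second route gives virtual memory cells, which in mice carry high CD44, CD122 (Il2rb), Eomes, Ly6C and inhibitory NK receptors of the Ly49 family, while effector cells carry granzymes and trafficking integrins. Both kinds make CCL5, a chemokine that resting naive CD8 T cells do not store. Lymph nodes hold mainly naive and memory cells that recirculate, whereas effector cells travel to tissue.

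Ccl5-high cells made up 14% of gated CD8 T cells in saline (exact Clopper-Pearson interval 12.4 to 15.7%), 15% in isotype (13.3 to 16.8%), 14.5% in anti-CTLA-4 (13 to 16.1%), 12.8% in depleted isotype (11.7 to 13.9%) and 14% in depleted anti-CTLA-4 (12.9 to 15.2%). These are 259, 254, 303, 443 and 503 cells. The depleted isotype library lay below its comparator beyond counting error, at 0.852 times the isotype share (0.738 to 0.983). Taken over all T cells, the same ratio was 0.932 (0.802 to 1.08), and that of depleted anti-CTLA-4 over anti-CTLA-4 was 1.18 (1.03 to 1.36). Gated CD8 T cells were themselves a larger share of T cells after depletion, 1.09 (1.05 to 1.15) and 1.23 (1.17 to 1.28) times, so the direction depends on the denominator. The gate left out every cell with a UMI of Cd79a, a B cell gene, and B cells were few after depletion. The part of this rule in the larger shares, and so in the ratios over all T cells, was not tested. Among gated cells the ratio was 1.07 (0.912 to 1.26) for isotype over saline, 0.967 (0.829 to 1.13) for anti-CTLA-4 over isotype, 0.964 (0.845 to 1.10) for depletion with the checkpoint antibody and 1.10 (0.973 to 1.23) for that antibody in depleted mice. Of all kept barcodes they were 2.64, 2.65, 2.59, 4.95 and 5.58%, in libraries that held 4502, 4721, 5196, 58 and 87 B cells. A share of all barcodes cannot tell more CD8 T cells from fewer B cells, so that share is not compared. After every cell was thinned to 2000 UMIs, the shares of gated cells were 7.88, 8.47, 8.56, 6.29 and 7.54%, with 15 to 23 shallower cells a library left out.

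**Figure D1:**
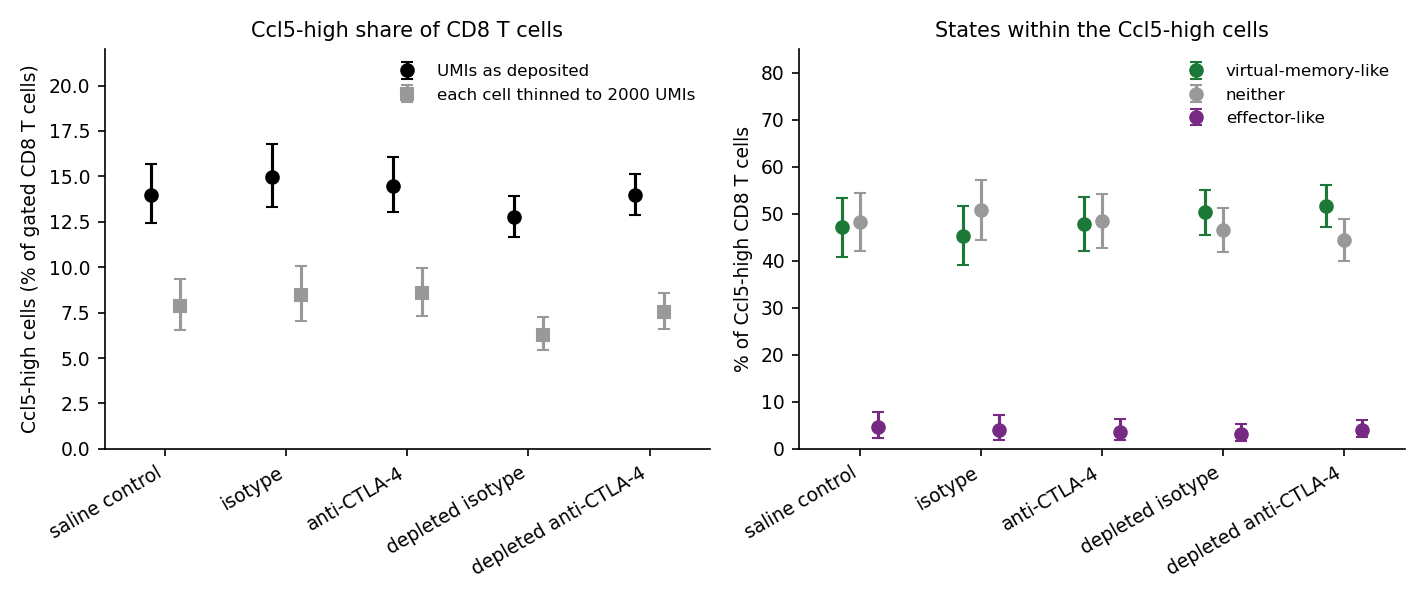
Left, Ccl5-high cells as a percentage of gated CD8 T cells in each of the 5 libraries, as deposited and after thinning to 2000 UMIs a cell. Right, the percentages of Ccl5-high cells that were virtual-memory-like, neither or effector-like. Bars on points are exact 95% intervals, and the deposited shares lie between 12.8 and 15%.

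The cut at 2 UMIs crosses a continuous range. The gate held 544 cells with exactly 1 Ccl5 UMI, and 36, 24, 27, 63 and 56 Ccl5-high cells had exactly 2. The median was 15, 17, 14, 11 and 14 Ccl5 UMIs a cell, and single cells reached 537. At least 2 Ccl5 UMIs were counted in 0.155, 0.169 and 0.212% of B cells in the 3 B cell-intact libraries and in 93.2 to 97.1% of NK cells. The median depth was 3587 to 3961 UMIs for those B cells and 5893.5 to 6877.5 for gated CD8 T cells, and the B cell shares stand for what free Ccl5 RNA gives in cells that should lack it. Ccl5-high cells were also deeper, with medians of 8074 to 9590 UMIs against 5558 to 6529 in cells with 0, and their mitochondrial shares were 1.74, 1.00, 2.04, 2.11 and 2.15% against 1.70, 0.967, 2.01, 2.08 and 2.09%. The isotype library stood apart with the lowest mitochondrial share in both. It enters 3 of 5 comparisons and had the highest share of interferon-high cells at the main cut. The part of RNA quality in its comparisons was not tested. Library totals were 54715065 to 63497466 UMIs. Across pairs of libraries, 1 Ccl5-high barcode was shared.

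Markers that came with the label are given as a description and not as a check, since Ccl5 divided the cells compared. Ly6c2, which encodes the surface protein Ly6C2, was at 1535, 1709, 1603, 1492 and 1623 CPM (a gene's UMIs, summed over the cells of a library and scaled to a common total) in Ccl5-high cells and at 331 to 379 in cells with 0. Xcl1, a chemokine that draws cross-presenting dendritic cells, was at 170, 110, 103, 95.1 and 101 against 16 to 29.8. The 2 sets of libraries did not overlap for either gene, and how many of all genes do the same was not counted. Cxcr3, the receptor that guides activated T cells into inflamed tissue, was at 125, 96.9, 108, 96.0 and 89.8 against 15.5 to 20.8. Gzmm, a granzyme typical of innate-like lymphocytes, was at 60.4, 53.2, 81.8, 52.8 and 56.7 against 0.897 to 2.69. In mm10-numbered GRCm38.p6 the genes lie at chr11:83525778-83530518 (Ccl5), chr15:75108161-75112066 (Ly6c2), chr1:164931644-164935522 (Xcl1), chrX:101731535-101734147 (Cxcr3) and chr10:79689020-79695261 (Gzmm).

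Genes of some other cells were counted in Ccl5-high cells. NK cells were gated with no Cd3 or Cd79a UMI and at least 2 UMIs of Ncr1 plus Klrb1c. Ncr1, which thus chose them, was at 0.386 to 2.58 CPM in Ccl5-high cells against 586 to 814, and the NK marker list summed to 104 to 183 against 23.3 to 34.1 in CD8 T cells with 0 Ccl5. Il17a, of type 17 T cells, and the red cell genes were at 0 in the Ccl5-high cells of all 5 libraries. The B cell list summed to 36.9 to 281 and the myeloid list to 98.3 to 225, against 58.1 to 223 and 79.2 to 117. Within libraries, the B cell list was at 281 against 58.1 in depleted anti-CTLA-4 and at 36.9 against 199 in isotype. The dendritic list was at 127 against 71.8 in depleted anti-CTLA-4 and lower than in cells with 0 elsewhere. The myeloid list was higher in Ccl5-high cells of every library, with 225 against 105 in anti-CTLA-4. Gamma-delta T cell genes summed to 7.14 to 12.3 against 0.147 to 1.23. A caller of doublets gave high scores to 6, 6, 8, 32 and 31 Ccl5-high cells, and where B cell receptors were sequenced (3 libraries), a receptor contig was held by 1, 1 and 0 of them, none a heavy chain. The part of these cells in the gene results was not tested except where a value without them is given.

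Against gated cells with 0 Ccl5, 370 of 12368 genes were at least 1.5-fold higher in all 5 libraries (2.99%) and 171 were at least 1.5-fold lower in all 5 (1.38%). The rule used this contrast, so these are descriptions. After Ccl5, the highest genes by their lowest ratio were Klre1 (68.1- to 377-fold over the 5 libraries), Klra7 (34.7 to 482), Gas7 (33.0 to 310), Klrc2 (30.3 to 99.4) and Klrc1 (27.0 to 119). All but Gas7, a growth arrest gene, encode receptors first known from NK cells. Klra7 encodes the inhibitory receptor Ly49G, and Klrc1 encodes NKG2A, which pairs with CD94. Klrk1, the activating receptor NKG2D, stood at 28.2, 31.3, 22.8, 26.6 and 43.6 CPM against 0.599 to 1.51. Of 11 listed NK receptor genes, 9 were higher in all 5 libraries. The Klra genes are close copies of each other, and counts could be split among them.

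The receptors were still far below NK cells, whose Klra7 level was 308 to 470 CPM against 34.6, 35.6, 40.1, 46.4 and 47.2 in Ccl5-high cells. Klrc1 was at 43.5, 46.7, 45.1, 44.3 and 46.8 against 366 to 509 in NK cells, and Klra8, the activating Ly49H of NK cells, at 2.01 to 10.8 against 644 to 831. Klrc1 varied less among the 5 libraries than Klrk1 did. Samd3, whose role in T cells is little described, was at 72.1 to 90.3 against 4.26 to 6.19 and was counted in 41.7 to 47.1% of Ccl5-high cells against 1.91 to 2.72% of cells with 0.

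**Figure D2:**
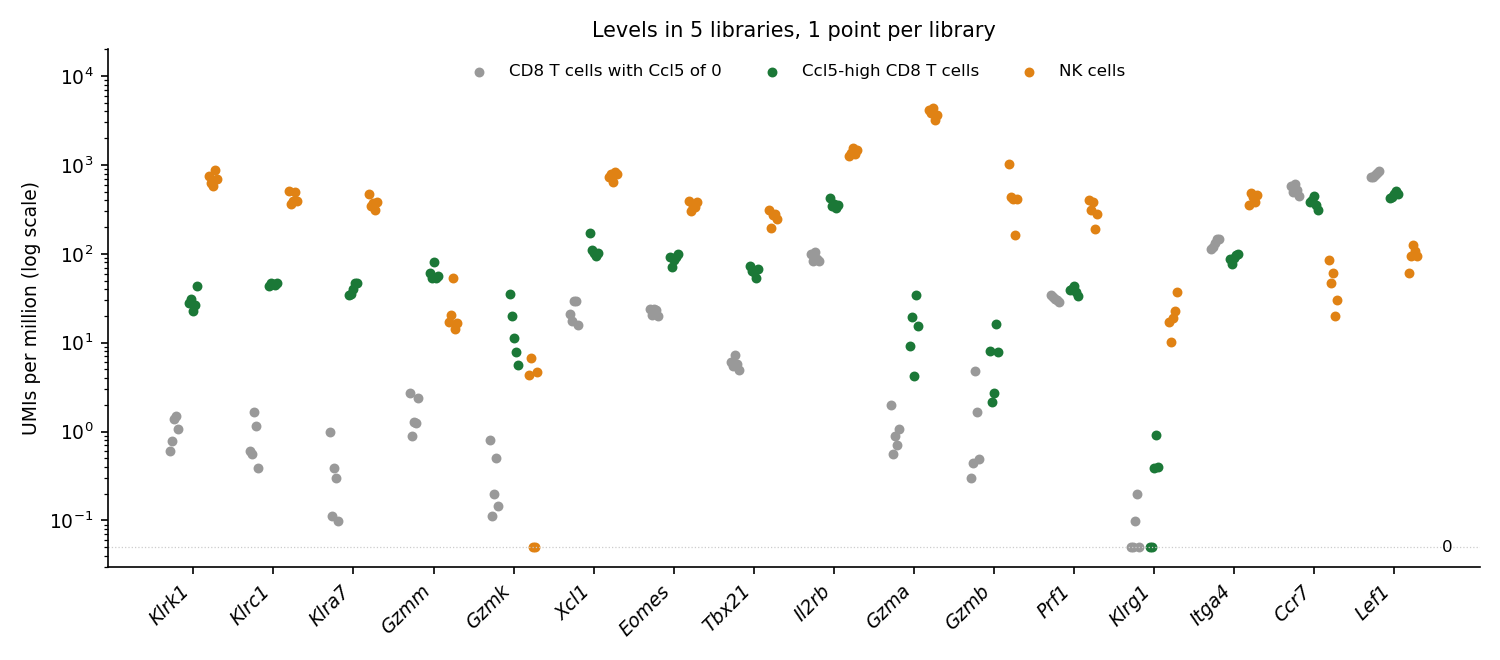
Summed CPM of 16 genes on a log axis, in gated CD8 T cells with 0 Ccl5, Ccl5-high cells and NK cells, with 1 point for each of the 5 libraries and levels of 0 drawn at the dotted line. Klra7 stood at 34.6 to 47.2 in Ccl5-high cells, between 0.0979 to 0.998 in cells with 0 and 308 to 470 in NK cells.

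Of 12 cytotoxic genes, 8 were higher in all 5 libraries. Gzmm was 22.4- to 64.0-fold and Gzmk 15.5- to 176-fold higher, Fasl, the death ligand, 8.28- to 22.3-fold, and Nkg7 and Ctsw, granule proteins that naive CD8 T cells already make, 1.65- to 1.72-fold and 1.5- to 1.64-fold. Gzmk, a granzyme of memory CD8 T cells, was at 35.1, 19.7, 11.2, 7.81 and 5.55 CPM. The saline library was the highest of the 5 and the depleted anti-CTLA-4 library the lowest. Prf1, which encodes perforin, was at 39.1, 40.3, 43.2, 37.4 and 33.5 against 28.6 to 34.6 in cells with 0 and 191 to 405 in NK cells. Gzma, at 9.27, 19.3, 4.24, 34.2 and 15.3, and Gzmb, at 8.06, 2.14, 2.70, 16.1 and 7.93, were far below NK cells, at 3179 to 4374 and 162 to 1021. Klrg1, a marker of terminal effector cells, was at 0, 0, 0.386, 0.919 and 0.396.

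Among secreted factors, 4 of 8 were higher in all 5 libraries: Ccl3, Ccl4 (7.96- to 26.5-fold), Xcl1 and Ifng (6.17- to 20.6-fold). Of 14 homing receptors, 4 were higher, among them Cxcr3 (5.22 to 6.86), Ccr2 and the integrin chain Itgb1 (2.87 to 3.39), and Itgae was lower (0.0672 to 0.183). Itga4, the chain that pairs with Itgb1 in VLA-4, was not raised with it: it stood at 86.6, 77.6, 90.3, 97.6 and 101 CPM against 113 to 148, a ratio of 0.655 to 0.768. Ccr7, the chemokine receptor that brings T cells into lymph nodes, was at 386, 406, 446, 350 and 315 against 442 to 604. Cxcr6 had ratios of 0.671 to 1.13.

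Of 14 transcription factors, Tbx21 (8.53 to 13.9), Eomes (3.45 to 4.99) and Prdm1 (1.74 to 8.52) were higher in all 5 libraries and Lef1 (0.562 to 0.629) was lower. Tcf7, of naive and stem-like memory cells, had ratios of 0.760 to 0.860. Of 15 cytokine receptors, 7 were higher. They included Il2rb, the chain that senses interleukin 15, at 422, 347, 368, 331 and 350 CPM against 83.3 to 104, and Il18r1 (2.51 to 3.34). Il7r had ratios of 1.16 to 1.37. Of 9 survival genes, 5 were higher, among them Bcl2 (1.75 to 1.90).

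Of 16 checkpoint and activation genes, Tigit (3.19 to 7.41), Cd160 (1.97 to 2.74), Entpd1 and Cd44 (1.84 to 2.50) were higher and Cd226 (0.497 to 0.556) was lower. Of 13 S100 and migration genes, 5 were higher, with S100a6 at 131, 76.3, 91.8, 101 and 114 CPM against 3.59 to 7.19. Of 12 naive genes, Lef1, Dapl1 (0.416 to 0.650) and Igfbp4 (0.122 to 0.296) were lower. Of 16 type I interferon genes, 1 was higher (Ly6c2) and 1 lower, and none of 15 cell cycle, 12 heat shock, 12 respiratory chain or 11 receptor signalling genes was past the fold in all 5 libraries. Over all genes the median log2 ratio was -0.06 to -0.04.

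Tbx21 and Eomes are T-box factors, so the promoters of genes higher in Ccl5-high cells were searched for a T-box motif, GGTGTGA on either strand in the 250 bases before the start site. RefSeq promoter entries for GRCm38.p6 were matched by symbol. The motif was found in 3.84% of 27025 promoters, in 8.01% of 287 promoters of genes higher in all 5 libraries (23 promoters) and in 5.47% of 128 of genes lower in all 5 (7 promoters). Of the 9347 promoters of genes that entered the comparison, 3.42% held it. The Runx core TGTGGT, searched in the same way, was in 15.9% of all promoters and 13.3% of those of genes that entered. It was in 20.6% of the higher group and 12.5% of the lower group. A match is a description of letters and not a binding site.

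The promoters of 4 of these genes read as follows, 5′ to 3′ on the strand of the gene:
Gzmk, chr13:113180966-113181215 (minus strand): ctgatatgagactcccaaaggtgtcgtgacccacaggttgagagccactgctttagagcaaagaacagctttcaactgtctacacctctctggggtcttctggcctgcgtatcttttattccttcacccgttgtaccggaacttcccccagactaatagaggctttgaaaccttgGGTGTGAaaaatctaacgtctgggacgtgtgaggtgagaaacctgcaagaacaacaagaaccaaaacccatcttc
Xcl1, chr1:164935523-164935772 (minus strand): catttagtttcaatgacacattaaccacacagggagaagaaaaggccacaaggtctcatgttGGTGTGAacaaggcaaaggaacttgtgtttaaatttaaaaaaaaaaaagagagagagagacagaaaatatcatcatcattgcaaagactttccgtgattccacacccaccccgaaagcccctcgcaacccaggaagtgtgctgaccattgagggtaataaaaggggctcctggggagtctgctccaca
Nkg7, chr7:43436888-43437137 (plus strand): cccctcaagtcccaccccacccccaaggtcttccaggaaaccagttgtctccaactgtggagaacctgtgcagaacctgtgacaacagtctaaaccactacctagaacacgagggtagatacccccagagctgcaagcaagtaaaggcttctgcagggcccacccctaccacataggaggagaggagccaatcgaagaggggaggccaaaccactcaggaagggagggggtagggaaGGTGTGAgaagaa
Samd3, chr10:26229457-26229706 (plus strand): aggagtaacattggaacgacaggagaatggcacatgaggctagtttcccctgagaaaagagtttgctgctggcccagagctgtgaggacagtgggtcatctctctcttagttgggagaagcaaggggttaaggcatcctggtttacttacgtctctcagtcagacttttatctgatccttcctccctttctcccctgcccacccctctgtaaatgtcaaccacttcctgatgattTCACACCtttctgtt

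The 4 promoters above are shown since they carry the motif (capitals) and belong to cytotoxic, chemokine or leading genes of Ccl5-high cells. The match starts 75 bases before the Gzmk start site, 188 before that of Xcl1, 13 before that of Nkg7 and 15 before that of Samd3, where it lies on the opposite strand and reads TCACACC. The 4 genes were higher in Ccl5-high cells of all 5 libraries, by 15.5- to 176-fold for Gzmk and 1.65- to 1.72-fold for Nkg7.

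Within Ccl5-high cells, genes were followed along the Ccl5 count. Ccl5 also chose these cells, and the lowest bin lies just past the cut. The bins are therefore a description and no separate check of the contrast with cells that lacked Ccl5. Cells with 2 or 3 Ccl5 UMIs made up 22.8, 14.2, 17.2, 21.7 and 19.5%, and cells with 30 or more made up 27.0, 29.9, 24.4, 24.2 and 30.02%. From the lowest to the highest bin, over all libraries, Klra7 went from 5.98 to 108 CPM, Klrk1 from 5.35 to 82.4 and Gzmm from 17.3 to 100. Il2rb went from 215 to 477 and Tbx21 from 39.0 to 88.0. The ratio of the 2 bins lay above 1 in each of the 5 libraries for Il2rb (2.02 to 2.60), Tbx21 (1.95 to 3.34), Gzmm (5.34 to 6.61), Ifng (4.27 to 6.95), Bcl2 (1.52 to 2.17) and S100a6 (3.07 to 11.4). Ly6c2, in contrast, was nearly level (1.09 to 1.35).

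Genes of the naive state went the other way. Igfbp4 went from 181 to 38.4 CPM, Dapl1 from 258 to 55.6, and Ccr7 from 487 to 266. The ratio was below 1 in all 5 libraries for these genes and for Itgae (0.240 to 0.745), Lef1 (0.643 to 0.893) and Tcf7 (0.738 to 0.943). Cd8a was also lower, from 428 to 306, and Cd8b1 had ratios of 0.704 to 0.944. The Ccl5 count moves with the depth of a cell, and the bins were not matched for depth. The part of naive cells with free Ccl5 RNA in the lowest bin was not tested.

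**Figure D3:**
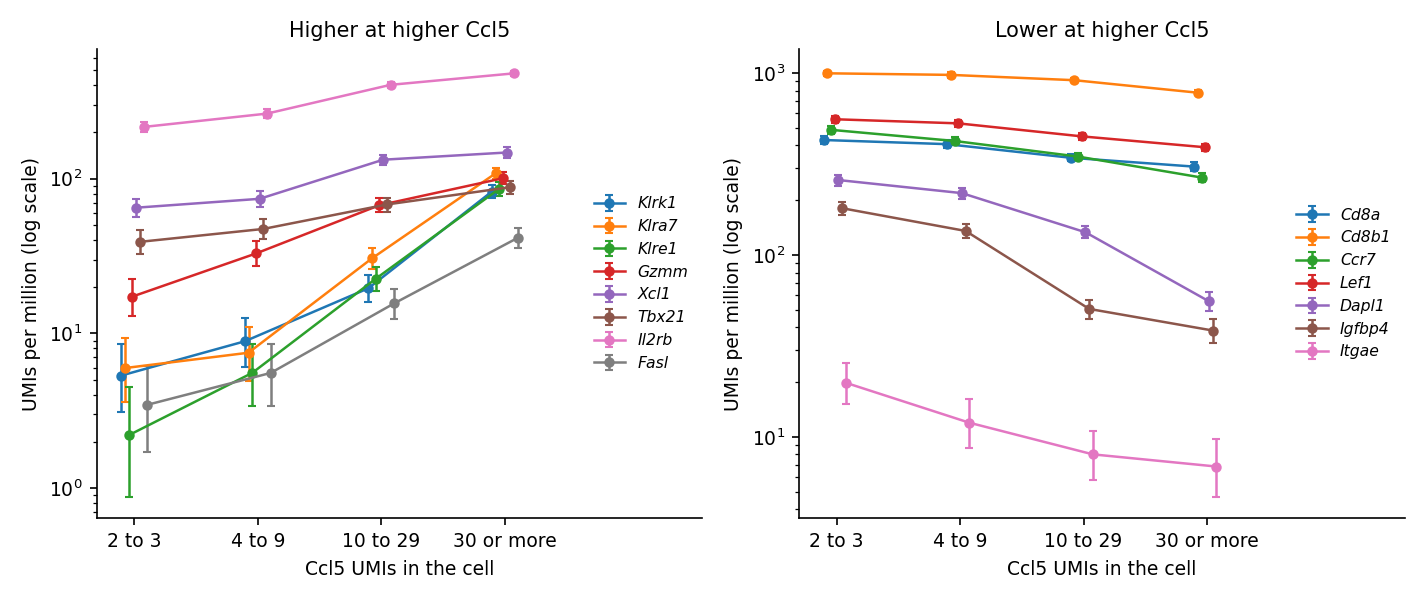
CPM over the Ccl5-high cells of all 5 libraries in 4 bins of Ccl5 UMIs (2 to 3, 4 to 9, 10 to 29, 30 or more), on log axes with exact Poisson 95% bars. Left, 8 genes of memory and cytotoxic cells, among which Klra7 went from 5.98 to 108. Right, 7 genes with CD8 and naive genes, among which Igfbp4 went from 181 to 38.4. The bins are cut on Ccl5, the gene that chose the cells.

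Ccl5-high cells were then divided by 2 lists. A cell with UMIs of at least 2 of Gzma, Gzmb, Klrg1, Cx3cr1, S1pr5, Zeb2, Havcr2 and Cxcr6 was called effector-like, and a remaining cell with at least 2 of Ly6c2, Klra7, Klrc1 and Eomes virtual-memory-like. These classes are ranges and not separate types: 91, 58, 70, 113 and 140 cells had exactly 1 effector gene, and 5, 6, 6, 10 and 15 effector-like cells also had at least 2 virtual-memory genes. Virtual-memory-like cells were 122, 115, 145, 223 and 260 cells, or 47.1, 45.3, 47.9, 50.3 and 51.7%. Effector-like cells were 12, 10, 11, 14 and 20 cells, or 4.63, 3.94, 3.63, 3.16 and 3.98%. Cells with neither set were 48.3, 50.8, 48.5, 46.5 and 44.3%. Most of them, 117, 120, 132, 186 and 213 cells, had exactly 1 virtual-memory gene and so fell just below the cut.

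At these cuts, no comparison moved these shares beyond counting error. The ratio of effector-like shares was 0.850 (0.374 to 1.93) for isotype over saline, 0.922 (0.398 to 2.14) for anti-CTLA-4 over isotype and 0.803 (0.362 to 1.78) for depletion under isotype, so a change of 1.5-fold either way lies inside each interval. Virtual-memory-like shares had ratios of 0.961, 1.06, 1.11, 1.08 and 1.03 for isotype over saline, anti-CTLA-4 over isotype, depletion with isotype antibody, depletion with checkpoint antibody and checkpoint antibody in depleted mice, with 1 inside every interval. The effector-like result depended on the cut. With at least 1 effector gene the class held 39.8% in saline (33.8 to 46.0%) and 26.8% in isotype (21.4 to 32.7%), without overlap. In the remaining libraries it then held 26.7, 28.7 and 31.8%. Thinned to 2000 UMIs, the effector-like class held 3, 1, 1, 4 and 2 cells, and the virtual-memory-like class 19.6, 19.3, 20.8, 20.9 and 21.5%. How many cells pass depends on depth, and median UMIs were 7823 to 13505 in effector-like, 8281 to 9850.5 in virtual-memory-like and 7709 to 9218 in the remaining cells.

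Effector-like cells stood apart in genes the lists did not use. Pooled over libraries, Lgals1 (galectin 1) was at 1309 CPM in them, 256 in virtual-memory-like cells and 195 in the rest. S100a6 was at 610, 89.8 and 62.3, and S100a4 at 322, 10.1 and 24.8. Itga4, low in Ccl5-high cells as a whole, was at 280 in effector-like cells against 72.1 and 95.9, and Itgb1 at 311 against 121 and 95.1. In these pooled values both chains of VLA-4 were thus highest in effector-like cells. Levels of this small class in single libraries are not given here. Pdcd1 (PD-1) was at 85, 4.74 and 5.08, Ctla4 at 125, 28.0 and 32.5, and Mki67, of dividing cells, at 146, 17.9 and 8.37. Tyrobp, a signalling adaptor of NK and myeloid cells, was at 199 against 9.93 and 14.1, and the part of other cells in this class of 67 cells was not tested.

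Genes outside the lists also separated virtual-memory-like cells from cells with neither set in every library. Klrk1 was 3.34- to 6.98-fold, Xcl1 1.77- to 3.37-fold, Il2rb 1.39- to 1.64-fold, Tbx21 1.17- to 1.71-fold and Ikzf2 (Helios) 1.45- to 2.96-fold higher in them, and Tigit 1.48- to 2.85-fold. Igfbp4 (0.252 to 0.476), Dapl1 (0.457 to 0.678), Ccr7 (0.648 to 0.802) and Itga4 (0.645 to 0.958) were lower in all 5. Cd44 was above 1 in 4 of 5 libraries, and Gzmk in 1 of 5 (0.111 to 2.58). Median Ccl5 counts were 18.5, 28, 20, 18 and 22 UMIs in virtual-memory-like cells against 9, 11, 8, 5 and 7 in cells with neither set.

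The antigen receptor offered a readout that the rule did not use. In each cell the V segment with most UMIs was taken, found for the beta chain in 1664 and for the alpha chain in 1257 Ccl5-high cells. Trbv12-2 led in 9.44% of Ccl5-high cells against 5.97% of cells with 0 Ccl5, 1.58-fold (1.34 to 1.87). It led in 11.1, 9.17, 12.5, 7.36 and 8.69% of Ccl5-high cells against 5.30, 5.19, 5.56, 6.46 and 6.42%, higher in 5 of 5 libraries without overlap. Trbv13-2 led in 10.8 against 8.97% (1.21, 1.04 to 1.40) and Trav13-2 in 2.86 against 1.43% (2.00, 1.37 to 2.91), both higher in 5 of 5. Trbv29 led in 4.93 against 6.55% (0.752, 0.601 to 0.941) and Trbv26 in 2.10 against 3.22% (0.653, 0.462 to 0.923), both lower in 5 of 5. Trav9-2, at 1.59 against 2.49% (0.640, 0.405 to 1.01), was also lower in 5 of 5. Each of these directions holds within every library, although the ranges over libraries overlap for Trbv13-2, Trav13-2, Trbv29 and Trav9-2. Most other segments compared did not keep their direction over the libraries. The ratios and their intervals pool the cells of all 5 libraries. Sign changes over 5 libraries cannot give a two-sided exact p below 0.0625, and the named segments were picked among all V segments after their values were seen.

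No receptor pair filled a library. Of 179, 171, 209, 296 and 340 Ccl5-high cells with both segments, 158, 148, 181, 238 and 256 different pairs were counted, and the commonest pair was in 5, 3, 5, 4 and 5 cells. Trav11, the segment of invariant NKT cells, led in 0 of 1257 Ccl5-high cells and in 0 of 7042 cells with 0 Ccl5. Whether this segment can be counted in these data was not tested. V pairs are no clonotypes, since joined sequences were not used here.

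**Figure D4:**
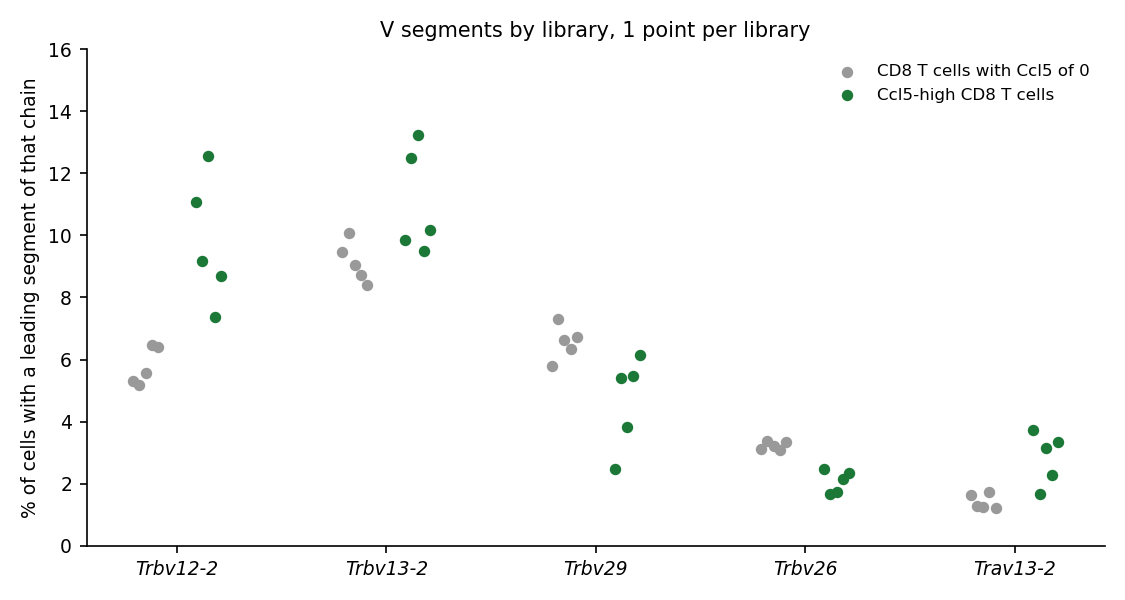
Percentage of cells in which a V segment held most UMIs, in Ccl5-high cells and in gated CD8 T cells with 0 Ccl5, with 1 point for each of the 5 libraries. Trbv12-2 lies at 7.36 to 12.5% in Ccl5-high cells and 5.19 to 6.46% in cells with 0, Trbv26 lies lower in Ccl5-high cells without overlap, and the points of Trbv13-2, Trbv29 and Trav13-2 overlap.

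The isotype library was set against saline, which addresses what came with the tumour. Whether the saline mice received an isotype antibody is not given in the sources used here. A gene was counted as past the fold at 1.5-fold with at least 50 UMIs over both libraries. Of 7429 genes, 171 were higher (2.3%) and 347 lower (4.67%), or 231 and 280 when the median gene was set to 1. Of 15 type I interferon genes, 9 were higher and none was lower, with a median log2 ratio of 0.69 against -0.05 over all genes and 0.11 for the same genes in CD8 T cells with 0 Ccl5. Ifit1, an interferon-induced RNA sensor, was 4.08-fold higher (2.13 to 8.46) on 46 against 12 UMIs in 16 and 9 cells. Isg15 was 2.21-fold (1.63 to 3.02), Ifit3 2.34-fold (1.5 to 3.73), Usp18 1.95-fold and Irf7 1.62-fold (1.25 to 2.10), and Isg15 was at 0.847 in cells with 0. Isg15 was counted in 39 isotype and 39 saline cells, and Ifit3 in 29 and 23.

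Interferon-high cells were then counted. Cells with UMIs of at least 4 of Isg15, Ifit1, Ifit3, Irf7, Usp18, Rtp4, Zbp1 and Xaf1 were 5.79% of Ccl5-high cells in saline (3.28 to 9.37%), 14.6% in isotype (10.5 to 19.5%), 7.59% in anti-CTLA-4 (4.87 to 11.2%), 11.3% in depleted isotype (8.49 to 14.6%) and 10.5% in depleted anti-CTLA-4 (7.99 to 13.6%). At this cut isotype was the highest and saline the lowest of the 5, and their intervals do not overlap. In cells with 0 Ccl5 the shares were 9.28, 8.66, 8.82, 7.94 and 7.71%. The separation and the rank depended on the cut. Thinned to 2000 UMIs and read at 2 of the genes, the shares were 5.10, 9.84, 6.93, 8.39 and 6.57%, and the intervals of saline (2.74 to 8.56%) and isotype (6.47 to 14.2%) overlapped. At 3 genes, saline had 17.8% (13.3 to 23.0%), isotype 24.8% (19.6 to 30.6%) and depleted isotype, the highest, 25.1%. At 5 genes, they had 3.09% (1.34 to 6.00%), 6.69% (3.95 to 10.5%) and 6.77%, again overlapping with depleted isotype the highest.

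**Figure D5:**
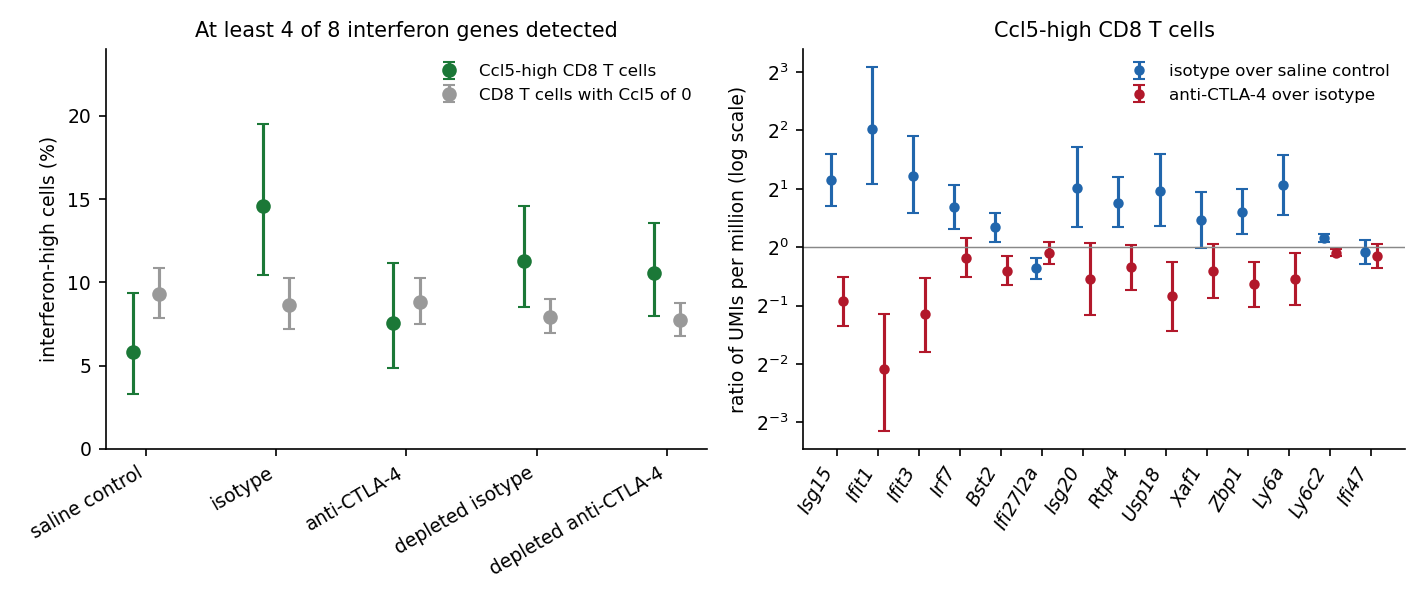
Left, percentage of interferon-high cells among Ccl5-high cells and among gated CD8 T cells with 0 Ccl5 in each library, with exact 95% intervals. Right, ratios of interferon genes in Ccl5-high cells on a log axis for isotype over saline and anti-CTLA-4 over isotype, with Ifit1 at 4.08 and 0.235.

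Several secreted factors were lower in the isotype library than in saline. Of 8, 5 were lower and 2 had ratios above 1, with a median log2 ratio of -0.67 against -0.18 in cells with 0. Ccl4, an inflammatory chemokine, was at 164, 60.9, 121, 56.1 and 59.3 CPM in the 5 libraries, high in saline and anti-CTLA-4, and stood at 0.371 (0.304 to 0.450) in isotype over saline. Ifng was at 44.7, 23.1, 36.3, 18.6 and 31.3, a ratio of 0.518 (0.367 to 0.723), counted in 23 against 42 cells. Ccl3 was at 42.3, 6.43, 10.4, 8.27 and 10.1, highest in saline and at 0.152 (0.0822 to 0.262), and Xcl1 at 0.645 (0.550 to 0.756), or 0.718 without the richest cell of each library. Among checkpoint genes Pdcd1, Lag3 and Tnfrsf9 were lower of 13, with Pdcd1 at 0.234 (0.118 to 0.432; 0.107 without the richest cells) in 5 against 15 cells and Tnfrsf9 (4-1BB) in 17 against 33 cells.

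Cell cycle genes were lower as well. Of 14 cell cycle genes, 10 were lower, with a median log2 ratio of -1.53 against 0.09 in cells with 0 Ccl5. Mki67 was at 62.4, 9.43, 27.4, 9.65 and 10.1 CPM, highest in saline. These UMIs came from few cells: Mki67 was counted in 7 isotype and 11 saline cells, and cells with at least 2 of Mki67, Top2a, Stmn1 and Birc5 numbered 12, 4, 9, 13 and 17 of the Ccl5-high cells. Without these cells, 9 of 15 interferon genes were higher and 4 of 8 secreted factors lower. In the same comparison the migration genes S100a4 (0.243), S100a6 (0.583) and Lgals1 (0.593) were lower, and none of 11 was past the fold without dividing cells. Igfbp4, of naive cells, was 2.48-fold higher (1.97 to 3.15) against 1.09 in cells with 0, and Socs3, an interleukin feedback gene, was 1.97-fold in Ccl5-high cells and 1.55-fold in cells with 0.

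Anti-CTLA-4 was compared with isotype in mice with B cells, sharing the isotype library with the comparison above. Of 7517 genes, 338 were higher (4.5%) and 125 lower (1.66%), or 243 and 193 when the median gene was set to 1. Tnfrsf9 was 2.83-fold higher (1.82 to 4.55), in 36 against 17 cells, and Tnfrsf4 (OX40) 8.10-fold (3.71 to 21.0), in 15 against 6 cells. They were the only 2 of 12 checkpoint genes past the fold. S100a4 was at 23.0, 5.57, 40.1, 32.4 and 45.4 CPM over the 5 libraries, with isotype the lowest, and at 7.20 (4.03 to 14) in anti-CTLA-4 over isotype. Its UMIs came from few cells, 15 of 303 against 11 of 254, and its ratio in cells with 0 Ccl5 was 0.627. Fabp5, a fatty acid carrier, was 3.81-fold higher (2.37 to 6.36).

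Secreted factors were higher under anti-CTLA-4 for 2 of 7 genes, Ccl4 at 1.99 (1.63 to 2.44), in 62 against 47 cells, and Ifng at 1.57 (1.11 to 2.23), in 36 against 23. Ccl4 was also 3.00-fold in cells with 0 Ccl5. Gzmm was 1.54-fold higher (1.23 to 1.94), and Gzma, at 0.220, became 0.654 without high doublet scores. Of 15 interferon genes, 15 had ratios below 1 and 5 were past the fold, with a median log2 ratio of -0.40 against -0.00 in cells with 0. Ifit1 stood at 0.235 (0.113 to 0.450), Ifit3 at 0.450 and Isg15 at 0.527. Of 303 anti-CTLA-4 and 254 isotype cells, Ifit1 was counted in 9 and 16, Ifit3 in 28 and 29 and Isg15 in 46 and 39. Of 12 cell cycle genes, 4 were higher. The median of their log2 ratios was 0.24, against 0.59 in cells with 0. Without cells that carried genes of B, dendritic or myeloid cells, 1 of 10 was higher. No gene of 12 transcription factors or 13 homing receptors was past the fold.

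Depleted isotype was compared with isotype, which addresses loss of B cells without checkpoint antibody. Of 8230 genes, 446 were higher (5.42%) and 112 lower (1.36%), or 350 and 161 when the median gene was set to 1. Genes higher in Ccl5-high cells included Izumo1r, the folate receptor 4 of regulatory and anergic T cells, at 2.85 (1.90 to 4.39), in 53 against 20 cells, and St8sia1, a ganglioside enzyme, at 2.60 (1.77 to 3.93), in 97 against 25 cells. Both were at 1.10 in cells with 0. A cluster of Ccl5-high cells that St8sia1 and Ccr9 helped to form, and in which Itgae was a marker, held 6.18, 4.33, 7.92, 16.5 and 16.5% of them. Its share in both depleted libraries (13.1 to 20.3% and 13.4 to 20.0%) lay above those of the other 3, and its part in this comparison and in depletion under anti-CTLA-4 was not tested. S100a4 (5.81, 3.29 to 11.2), Lgals3 (11.8, 4.90 to 37.0; 8 against 4 cells) and Lgals1 (1.64, 1.48 to 1.83) were the 3 of 13 migration genes past the fold. Lgals1 was 1.49 without the richest cell. S100a4 was counted in 19 of 443 against 11 of 254 cells, and its ratio in cells with 0 Ccl5 was 0.839. Of the list, 1 of 12 was past the fold without dividing cells and 2 of 13 without cells that carried genes of B, dendritic or myeloid cells.

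Ccr2, a receptor for inflammatory chemokines, was at 14.5, 9.0, 11.6, 19.1 and 18.6 CPM over the 5 libraries, and both depleted libraries were above all 3 others. The ratio was 2.12 (1.30 to 3.60) with isotype antibody and 1.61 (1.06 to 2.52) with anti-CTLA-4. Itgae, the integrin chain CD103, was likewise highest in both depleted libraries, at 8.86, 9.0, 5.40, 14.7 and 11.9, with ratios of 1.63 (0.984 to 2.82) and 2.2 (1.22 to 4.27), in the libraries with most cells of that cluster. Tigit was lowest in both, at 52.8, 40.7, 45.5, 25.5 and 28.0, with ratios of 0.626 (0.472 to 0.832) and 0.614 (0.477 to 0.791). Without high doublet scores Tigit was at 0.741 under isotype. Gzmk was lower in both, at 0.396 (0.247 to 0.631) without and 0.496 with the checkpoint antibody, from 9 to 12 cells a library.

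These 2 depletion comparisons share no library. Of 8155 genes entered in both, 42 were higher in both. That is 9.70% of the 433 higher under isotype and 16.7% of the 252 higher under anti-CTLA-4. Over all genes of each comparison, 5.42% were higher under isotype and 3.53% under anti-CTLA-4. Of the 102 and 123 lower genes, 6 were shared, and 23 genes went opposite ways. The serine kinase gene Pim1 was at 0.551 (0.489 to 0.620) under isotype against 1.03 in cells with 0, whereas Socs3, at 0.548, was at 0.594 in cells with 0. Of 12 heat shock genes, 3 were lower under isotype, with a median log2 ratio of -0.18 against -0.21 in cells with 0. Hspa1a, 1 of them, was at 0.563 against 0.576 in cells with 0. No transcription factor was past the fold in either comparison, nor was any of 8 NK receptor genes under isotype.

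In depleted anti-CTLA-4 over anti-CTLA-4, 3.53% of 8538 genes were higher and 1.94% lower. Klrk1 was 1.92-fold higher (1.43 to 2.60), in 72 against 26 cells, and at 0.782 in cells with 0 Ccl5. Gzma was 3.60-fold (1.90 to 7.5), in 18 against 9 cells. Cd44 was 1.52-fold (1.31 to 1.76) in Ccl5-high cells and 1.47-fold in cells with 0. Of 13 checkpoint genes 1 was higher and 4 were lower, among them Tnfrsf4 (0.236), Tnfrsf9 (0.471) and Pdcd1 (0.453). Ccl4 was at 0.489 (0.416 to 0.575), in 106 against 62 cells, and Klra3, an Ly49 gene, at 0.438 (0.297 to 0.645). Of 14 cell cycle genes, 6 were lower, with a median log2 ratio of -0.43 against -0.66 in cells with 0. Without cells that carried genes of B, dendritic or myeloid cells, 1 of 13 was lower.

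In depleted anti-CTLA-4 over depleted isotype, 2.05% of 8955 genes were higher and 1.66% lower. Ifng was 1.68-fold higher (1.28 to 2.23), in 62 against 31 cells, after 1.57-fold in mice with B cells. Hspb1, a small heat shock protein, was 3.02-fold (2.13 to 4.36), in 42 against 23 cells, and 3.08-fold (1.97 to 4.97) with B cells. Nfil3 was 1.86-fold (1.43 to 2.44) and Il2ra, the high-affinity interleukin 2 receptor chain, 2.44-fold (1.40 to 4.45), in 16 against 10 cells. All 12 immediate early genes entered had ratios above 1 and 2 were past the fold, with a median log2 ratio of 0.33 against 0.24 in cells with 0. Ifi27l2a, an interferon-induced gene, was at 0.496 (0.452 to 0.544), and at 0.769 in cells with 0. The 2 anti-CTLA-4 comparisons share no library, and of 7517 genes entered in both 12 were higher in both, 3.55% of 338 and 16.2% of 74, with Ifng, Hspb1, Rora and Fos among them. A further 4 were lower in both and 18 went opposite ways. Over all 7517 genes, 338 (4.5%) were higher with B cells and 74 in depleted mice.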

How the data were processed

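Deposited filtered matrices of UMI counts (32285 genes, not normalized) were read for 5 libraries of sorted lymph node cells. Per the file headers, the authors made these counts with 10x Genomics software 7.0.1. The submitters' processing notes also name bcl2fastq 2.20.0 and the build mm10. Sources used here do not give the gene annotation or how cells were called. Deposited contig tables, whose UMI counts the authors assembled per B cell receptor contig, were used only to look for receptor contigs in Ccl5-high cells. Columns of other samples numbered 0.

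UMIs of a gene were summed over cells of a library and divided by their total, giving CPM. Intervals at 95% were exact Poisson for a level, exact binomial for the ratio of a gene between libraries, Clopper-Pearson for a share and logarithmic for a ratio of shares. A sum of 0 was set to 3 counts in a ratio. A gene was counted at 1.5-fold with at least 50 UMIs over both libraries. Doublet scores came from scanpy 1.11.5 (its automatic threshold marked 0 cells in the depleted libraries, so in every library the highest scores were marked, at 0.8% for each 1000 barcodes), and clusters from leidenalg 0.10.2, with Python 3.11.15, numpy 2.4.6 and scipy 1.17.1. Steps were tested on simulated data. No doublets were removed from the main values.

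Named genes were those of 19 lists and the marker lists, the 12 highest and 12 lowest genes of each comparison by the interval bound nearest 1, and the 20 highest and 10 lowest genes against cells with 0 Ccl5. Receptor segments, mitochondrial, ribosomal, unnamed and sex-linked genes, genes below 10% of their B cell level and genes with most UMIs in 1 cell were left out of the ranking. The cells and lists were chosen with earlier results of these data known. Alternatives were other cuts of Ccl5, CD8 and class genes, thinning, another scale, and leaving out doublet-scored cells or the cell with most UMIs of a gene. Some results on single genes are not reported here.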

Additional observations from a re-analysis of the deposited data

Results flagged for a closer look

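Each result here went opposite ways in 2 matched comparisons. With 1 library a group, the differences were not tested.

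Cell shares opposed each other by small amounts. Depletion went with a ratio of interferon-high shares of 0.775 under isotype and 1.39 under anti-CTLA-4. Anti-CTLA-4 went with a ratio of Ccl5-high shares of 0.967 in mice with B cells and 1.10 in depleted mice. For effector-like shares the ratios were 0.922 and 1.26 in the same 2 settings, and depletion gave 0.803 under isotype and 1.10 under anti-CTLA-4. Every one of these 8 ratios has an interval that holds 1.

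Genes opposed each other more. Under anti-CTLA-4, Birc5 (survivin, of dividing cells) stood at 4.58 in mice with B cells and 0.453 in depleted mice, Stmn1 at 2.00 and 0.615, and Tnfrsf4 at 8.10 and 0.521. Under depletion, Birc5 stood at 2.87 with isotype and 0.284 with anti-CTLA-4, Stmn1 at 1.67 and 0.514, Top2a at 1.66 and 0.436, Tnfrsf4 at 3.67 and 0.236, Cst3 at 1.56 and 0.450, and Ifit1 at 0.443 and 2.57. Birc5, Stmn1 and Top2a are cell cycle genes that few cells carried, and Cst3, a gene of dendritic cells, was at 1.01 under isotype without the richest cell.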

How the results depend on the processing

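No paired analysis was possible because each group has 1 library, and no replicate could be left out. The gene counts followed the minimum of UMIs. At 100 and at 20 UMIs, isotype over saline had 54 and 419 genes higher and 146 and 704 lower, anti-CTLA-4 over isotype 132 and 687 higher and 33 and 337 lower, depleted isotype over isotype 240 and 897 higher and 44 and 316 lower, depleted anti-CTLA-4 over anti-CTLA-4 122 and 646 higher and 62 and 399 lower, and depleted anti-CTLA-4 over depleted isotype 71 and 455 higher and 59 and 420 lower. The other counts were within 1.5 times, except 193 lower in anti-CTLA-4 over isotype on the median scale and 187 lower in depleted isotype over isotype among virtual-memory-like cells.

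Shares of Ccl5-high and of virtual-memory-like cells kept their ratios within the main intervals under every alternative run. Effector-like ratios did not: thinned, they were 0.335 for isotype over saline, 2.30 for depletion under isotype and 0.439 for anti-CTLA-4 in depleted mice, and with at least 3 genes 0.146, 2.29 and, for depletion under anti-CTLA-4, 3.01. The interferon-high ratio of isotype over saline was 1.40 at 3 genes. These alternatives leave few effector-like cells, or change which cells count.

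Of 111 named gene values, the median scale moved none beyond its interval, leaving out high doublet scores moved 15 and reversed 2, and leaving out the cell with most UMIs moved 18 and reversed 2. Reversed were Tyrobp in anti-CTLA-4 of depleted mice (1.10) and Gzma in isotype over saline (0.710) without high doublet scores, and Gzmb without the richest cell under depletion (0.896) and under anti-CTLA-4 in depleted mice (4.48). Cluster names could give no value, since no cluster met the naming rule. Interferon settings and leaving out interferon-high, dividing or mixed cells were chosen after seeing the data. Depth limits the effector-like class most, at 10 to 20 cells a library.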

Other observations

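Clusters of the Ccl5-high cells show states that the 2 lists do not name. A cluster of 111 cells (6.30%) was led by Pdcd1, Gzmk, Tox2, Il2ra and Ctla4, genes of activated or chronically stimulated T cells, and Gzmk, Pdcd1 and Ctla4 were also highest in the effector-like class. A cluster of 101 cells (5.73%) was led by Klra9, Klra1 and Klra7 with Itga2, Klrb1c and Fcer1g, genes that NK cells share. Smaller clusters were led by Rsad2, Ifit3b and Ifit1 (29 cells), by Ccna2 and Birc5 (26 cells, with a median of 20099 UMIs) and by Ccl22 and Fscn1, genes of mature dendritic cells (29 cells). A cluster of 207 cells was led by Ccr9 and Igfbp4, both lower in Ccl5-high cells than in cells with 0. It held 16, 11, 24, 73 and 83 cells, more in both depleted libraries, and the depletion comparisons of genes that lead it were not separated from this. All 14 clusters stay unnamed, and genes that lead a cluster were used to form it.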
